A study of Mus musculus with 2 samples.

Results

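The 37 genes described here are classical interferon-induced genes, among them the Ifit and guanylate-binding protein (Gbp) families, as measured in cultured newborn mouse ureters in which SHH signaling was blocked. A gene was included by its name on a curated list and had to be carried by gene probes on both arrays; 37 of the 29924 gene names on the arrays qualified, all 37 of those listed. Each gene was read from its brightest probe over all 4 channels. The list was drawn up with the cyclopamine-to-control ratios of these same arrays known. Levels, ratios and counts of the 37 genes are therefore given as a description, with no test.

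Ureters of wild-type NMRI mice at postnatal day 0 were explanted and kept on transwell membranes for 18 h, either with 10 µM cyclopamine, a plant alkaloid that inhibits the SHH signal transducer SMO, or with solvent diluted 1:1000, which the labels give as DMF, whereas the methods of the study name ethanol as the solvent of cyclopamine. RNA of pooled ureters was compared on 2 two-colour arrays, each with a cyclopamine pool against a solvent pool of the same sex. On array 1 (female pools) the control RNA was in the green and the cyclopamine RNA in the red channel, and on array 2 (male pools) the dyes were exchanged. The genotype, strain, age and culture were shared by all pools, and sex, dye orientation and replicate number cannot be told apart. One channel label names the WNT secretion inhibitor IWP-2 in place of cyclopamine, whereas the titles, the treatment entries and the protocol give cyclopamine, under which name the pools are described here.

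Interferons are cytokines released when cells sense foreign or misplaced nucleic acid. Type I and type III interferons activate the transcription factor complex ISGF3, to which Stat2 and Irf9 belong and which binds the interferon-stimulated response element (ISRE), whereas type II interferon acts through the gamma-activated site (GAS). The induced genes encode proteins that sense viral RNA, block translation, cleave RNA, coat the compartments of intracellular pathogens and present antigen, and many of them are also expressed at a basal level without infection.

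Each probe was printed 4 times per array, and no gene spot was saturated. Between 64.8 and 70.0% of the gene spots were well above background in each of the 4 channels. The 75th percentile of the processed intensity (background-subtracted and dye-balanced fluorescence, in arbitrary units) was 3338 for the control channel of array 1 and 628 for that of array 2, so that intensities are compared only within an array. Of 7 SHH target genes, limma called 5 lower and 0 higher with cyclopamine (adjusted p under the limit of 0.05), with a median log2 ratio of −1.15. All 10 urothelial and all 11 smooth muscle and mesenchymal markers were measurable, and 4 of 8 kidney epithelial markers were not well above background in any channel.

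The interferon-induced genes were mostly more abundant after cyclopamine, with Gbp5 (by its brightest probe), Mx1, Ifit1 and Gbp3 at about 2-fold. All 37 were well above background in all 4 channels. The ratio was higher than 1 on both arrays for 32 genes, where 28.6% of all 19354 genes measured behaved so, and lower than 1 on both for 2 genes, Bst2 and Psmb9, where 29.0% of all genes did. B2m, Ifi35 and Psmb8 went in opposite directions on the 2 arrays. The median log2 ratio of the 37 genes was 0.57 on array 1, 0.17 on array 2 and 0.41 for the mean of both, a 1.33-fold difference, whereas the medians of all genes were −0.0029, −0.00049 and −0.0058. The 5th and 95th percentiles of the mean log2 ratios of all genes were −0.45 and 0.43. Since these are bulk samples, more cells of a responding type and more RNA per cell cannot be told apart.

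The ratio was higher on array 1 than on array 2 for 28 of the 37 genes and lower for 9. The share of all genes with the higher ratio on array 1 was not counted, so these counts have no background. On array 1, 17 genes were at least 1.5-fold higher (8.49% of all genes), and on array 2, 7 genes were (2.07% of all genes); 11 reached this fold on array 1 only, and Rsad2 was the 1 gene that reached it on array 2 only. None of the 37 was lower by this fold on either array. The spread of all genes was also wider on array 1, with an SD of the log2 ratio of 0.45 against 0.30 on array 2. Across genes, which are not independent replicates, the ratios of the 2 arrays correlated with r = 0.67 over the 37 members and with r = 0.24 over all genes. The members had been chosen with their ratios known, so their r is a description only.

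The limits used in the study were a control intensity above 100 and a 1.5-fold difference. The scale of that intensity is not stated, and the processed intensity was used here. Taken on both arrays in the same direction, the limits were met by 4 of the 37 genes on the higher side, Gbp5, Ifit1, Gbp3 and Ifit3b, where 0.213% of the 13645 genes with enough control intensity met them. On the lower side they were met by 0 of the 37 genes, against 0.630% of all genes. Control intensity was above the limit on both arrays for 33 members and below it on array 2 for Mx1, Mx2, Dhx58 and Gbp4. Irrespective of intensity, 6 members were at least 1.5-fold higher on both arrays, the further ones being Mx1 and Mx2. Just inside the fold limit (log2 0.585) lay Mx2 and Ifit3b, with smaller ratios of 0.67 and 0.69 on array 1, and just outside lay Ifit3, with 0.54 on array 2.

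**Figure D1:**
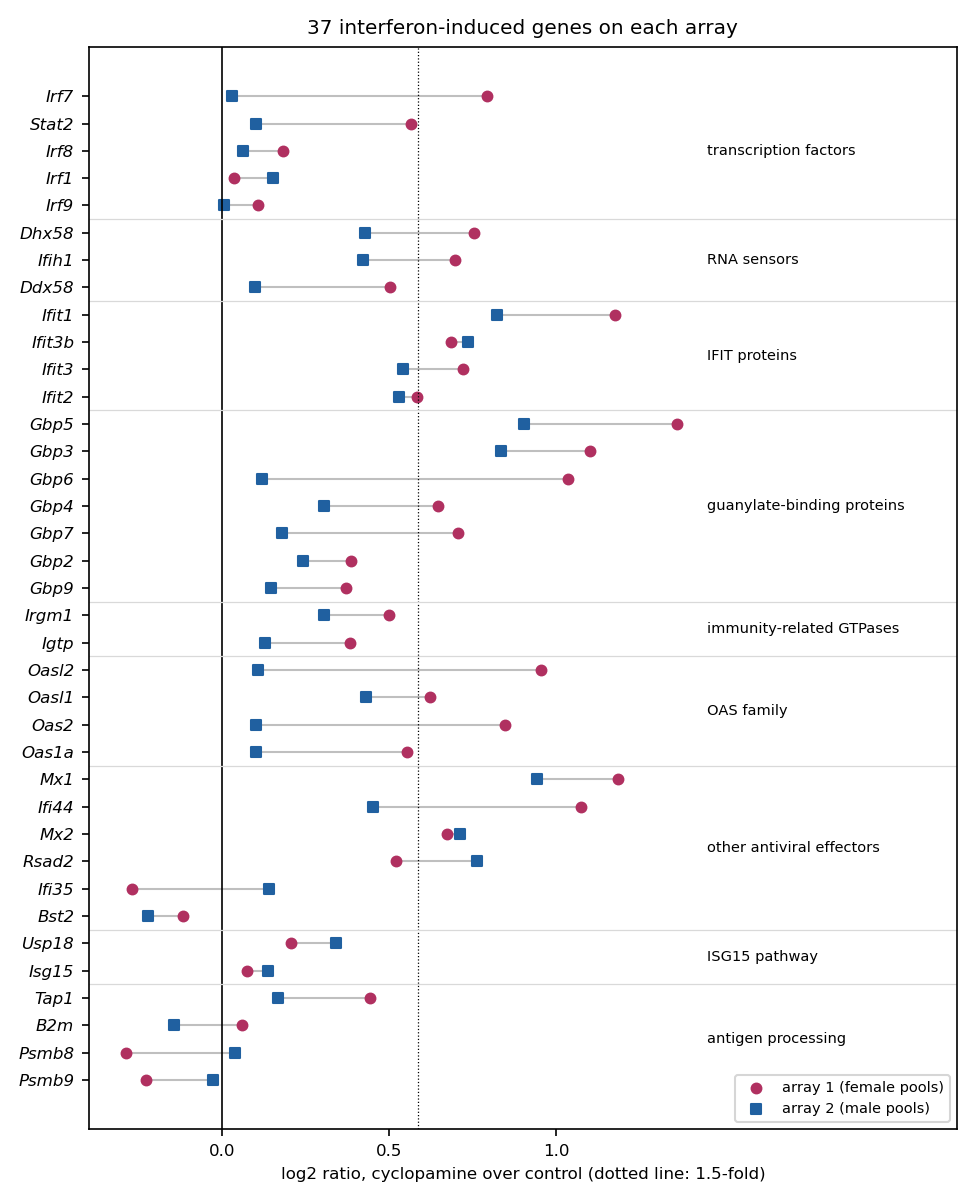
Log2 ratio of cyclopamine over control for each of the 37 interferon-induced genes on array 1 (female pools) and array 2 (male pools), grouped by role; each point is 1 array. For 32 genes both points lie above 0, Bst2 and Psmb9 have both points below 0, and the array 1 point is the higher one for 28 genes. The share of all genes with the higher point on array 1 was not counted.

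**Figure D2:**
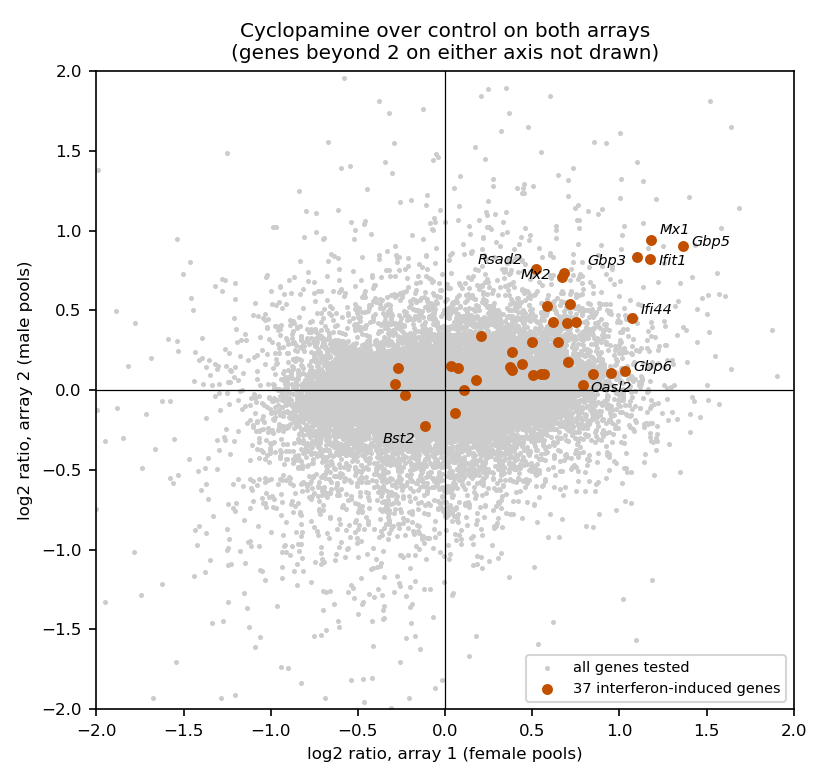
Log2 ratio on array 2 against that on array 1 for all 19354 genes measured (grey) and the 37 interferon-induced genes (orange), 1 point per gene. The 37 genes are drawn out towards the upper right, with Gbp5, Mx1, Ifit1 and Gbp3 farthest, while Gbp6 and Oasl2 lie far to the right but close to 0 on array 2.

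Ifit proteins bind viral RNA that lacks the methylation marks of host mRNA and stop its translation. All 4 Ifit genes were higher on both arrays, with a median log2 ratio of 0.67 and with similar medians on array 1 (0.70) and array 2 (0.64). The genes lie side by side on chromosome 19. The sequences before the annotated start sites of Ifit1 and Ifit3 are shown here because they carry the element through which this family is known to be induced. The windows are the 250 bases upstream of the start site of Ifit1 (chr19:34640639-34640888) and Ifit3 (chr19:34583279-34583528), both on the plus strand, from RefSeq on build GRCm38.p6. Capitals mark matches to the ISRE core (GAAA, any 2 bases, then GAAA) on either strand, here read as its reverse complement.
Ifit1: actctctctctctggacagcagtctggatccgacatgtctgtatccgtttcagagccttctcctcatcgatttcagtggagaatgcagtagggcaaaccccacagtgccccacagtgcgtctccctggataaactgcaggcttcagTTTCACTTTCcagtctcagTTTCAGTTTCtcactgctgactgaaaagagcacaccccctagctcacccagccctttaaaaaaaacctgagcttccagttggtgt
Ifit3: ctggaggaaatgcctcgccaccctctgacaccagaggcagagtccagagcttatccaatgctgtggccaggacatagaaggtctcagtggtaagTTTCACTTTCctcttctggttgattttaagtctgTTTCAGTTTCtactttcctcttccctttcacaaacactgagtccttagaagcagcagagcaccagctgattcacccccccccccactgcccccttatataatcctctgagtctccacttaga
The Ifit1 matches began at positions −104 and −85 from the start site, and those of Ifit3 at −156 and −122. Ifit3b, a close relative of Ifit3, had a pair of matches with the same spacing, at −188 and −154. The Ifit2 window held no ISRE core match, only a GAS match at −241.

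The Ifit1 probe (mm9, chr19:34723796-34723855) read 1494 in control and 3378 in cyclopamine on array 1, and 340.4 and 602 on array 2. Its log2 ratios were 1.18 and 0.82, with a mean of 1.00 ± 0.25 (SD, n = 2 arrays, as for all means here). Both cyclopamine pools were above the control pool of their array. Ifit3b read 1687 in control and 2713 in cyclopamine on array 1, and 202 and 336 on array 2, giving a mean log2 ratio of 0.71 ± 0.035. A second Ifit3b probe gave 0.72. The Ifit3 probe read 5719 and 9416 on array 1 and 753 and 1095 on array 2, with a mean of 0.63 ± 0.13. Ifit2 had log2 ratios of 0.58 and 0.53, the first of them just short of the 1.5-fold limit. In all 4 genes the mean ratio was larger than the SD between the arrays. With n = 2 and genes chosen with their ratios known, this is no measure of reproducibility. No run of more than 11 bases was shared between probes of different members. Probes were not compared with the transcripts of other members. Whether the Ifit3 and Ifit3b probes each also read the other gene was therefore not tested.

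Guanylate-binding proteins are large GTPases that assemble on pathogen-containing vacuoles and on bacteria in the cytosol. All 7 Gbp genes among the members were higher on both arrays, with a median log2 ratio of 0.70 on array 1 and 0.24 on array 2. The family outside the members was mixed. Gbp2b and Gbp10 were higher on both arrays, Gbp8 was lower on both (−0.32 and −0.47), and Gbp11 went in opposite directions (0.30 and −0.06). Gbp2, Gbp3, Gbp5 and Gbp7 lie in a cluster on chromosome 3, and Gbp4, Gbp6 and Gbp9 in another on chromosome 5. The 250 bases upstream of Gbp5 (chr3:142496684-142496933) and Gbp2 (chr3:142620413-142620662), plus strand of GRCm38.p6 from RefSeq, are given because these genes stand for the largest and one of the smaller Gbp ratios. Capitals mark the ISRE core and, in Gbp5, also the GAS motif TTCNNNGAA.
Gbp5: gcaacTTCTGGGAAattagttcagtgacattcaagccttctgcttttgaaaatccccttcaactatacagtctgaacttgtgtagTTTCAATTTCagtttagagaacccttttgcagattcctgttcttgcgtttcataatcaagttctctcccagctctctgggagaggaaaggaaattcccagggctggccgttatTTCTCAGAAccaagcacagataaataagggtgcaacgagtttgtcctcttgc
Gbp2: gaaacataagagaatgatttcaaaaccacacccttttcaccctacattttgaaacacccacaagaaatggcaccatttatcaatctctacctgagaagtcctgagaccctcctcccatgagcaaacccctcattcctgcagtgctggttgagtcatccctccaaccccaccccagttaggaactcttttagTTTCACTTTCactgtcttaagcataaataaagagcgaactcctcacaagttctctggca
In Gbp5 the ISRE core match lay at −165 and the GAS matches at −245 and −52, and in Gbp2 the single ISRE core match lay at −59. Gbp3 held overlapping ISRE core matches at −45 and −39, and Gbp7 held 1 at −53 with GAS matches at −106 and −87. Windows for the chromosome 5 genes Gbp4, Gbp6 and Gbp9 were not analysed here.

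Gbp5, which promotes inflammasome assembly, had the largest mean ratio of the 37 genes. Its brightest probe (mm9, chr3:142184779-142184838) read 571 in control and 1467 in cyclopamine on array 1, and 163 and 305 on array 2. The log2 ratios were 1.36 and 0.90, with a mean of 1.13 ± 0.33. A second Gbp5 probe read 241 and 274 on array 1 and 77.7 and 73.4 on array 2, well above background in all 4 channels, with log2 ratios of 0.19 and −0.08. The probes of this gene thus disagreed by 1.08 in their mean log2 ratio, and the size of the Gbp5 difference depends on the probe. The array annotation assigns them to different transcripts of Gbp5. In the other 7 genes with a second probe measured in all channels, the probe means differed by 0.0049 to 0.33.

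Gbp3 (mm9, chr3:142236032-142236091) read 6805 in control and 14604 in cyclopamine on array 1, and 1389 and 2478 on array 2. With log2 ratios of 1.10 and 0.84 and a mean of 0.97 ± 0.19, it was the second Gbp gene near 2-fold. Its neighbours on chromosome 3 had smaller ratios. Gbp7, which takes part in oxidative killing of bacteria, read 3291 and 5365 on array 1 and 902 and 1020 on array 2, and its mean was 0.44 ± 0.37. A second Gbp7 probe was not well above background in any channel. Gbp2 read 12823 and 16762 on array 1 and 2289 and 2708 on array 2, with a mean of 0.31 ± 0.10.

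The chromosome 5 genes among the members were also higher in both cyclopamine pools, and Gbp6 differed most between the arrays. The Gbp6 probe read 841 in control and 1723 in cyclopamine on array 1, but 193 and 209 on array 2. Its log2 ratios were 1.03 and 0.12, so that the mean of 0.58 was smaller than the SD of 0.65. A second Gbp6 probe read 518 and 829 on array 1 and 120.02 and 147 on array 2, with ratios of 0.68 and 0.30. Both Gbp6 probes thus gave the larger value on array 1. Gbp4 read 414 and 648 on array 1 and 76.1 and 94.0 on array 2, with a mean of 0.48 ± 0.24. Gbp9 read 610 and 789 on array 1 and 132 and 147 on array 2, with a mean of 0.26 ± 0.16.

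**Figure D3:**
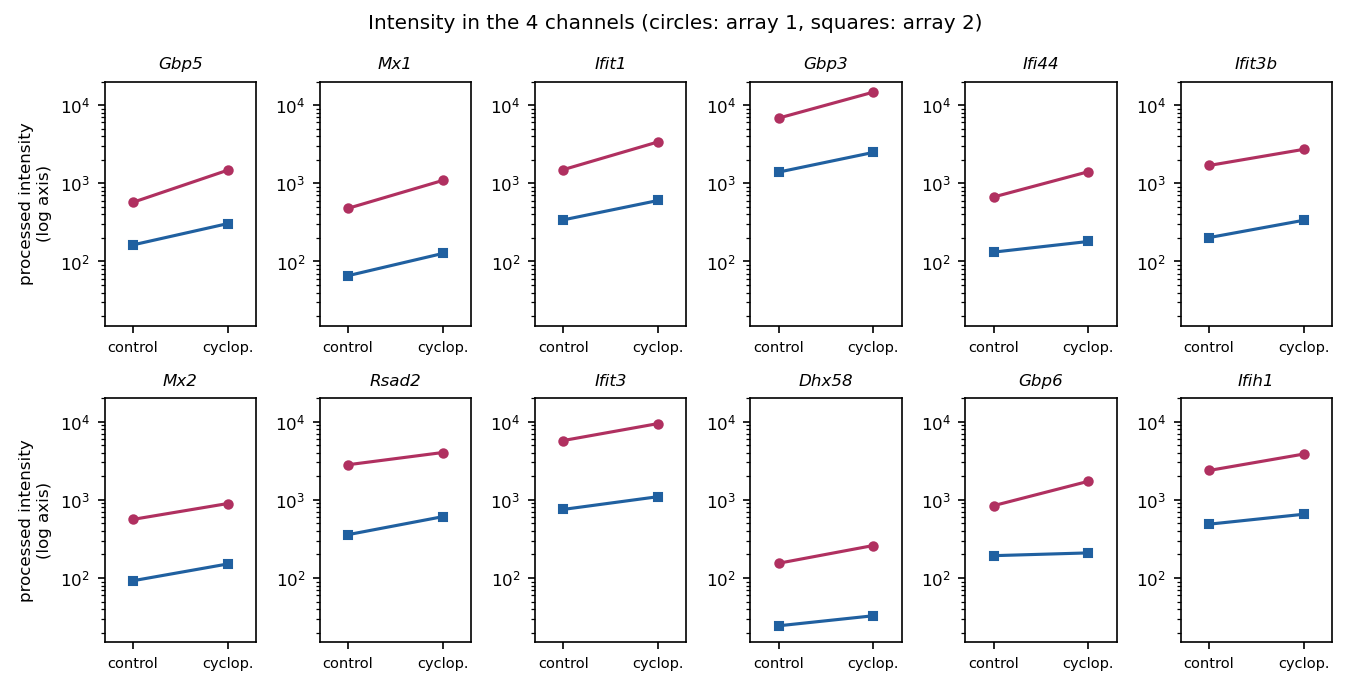
Processed intensity (arbitrary units, log axis) of the brightest probe in the control and cyclopamine channels of array 1 and array 2 for the 12 interferon-induced genes with the largest mean ratio; a line joins the channels of an array. Every line slopes upwards from control to cyclopamine, and the Gbp6 line of array 2, from 193 to 209, is the flattest.

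A diverse set of antiviral effectors came next. Mx1 and Mx2 are dynamin-like GTPases that trap viral nucleocapsids, Rsad2 (viperin) makes a nucleotide that ends viral RNA chains, Ifi44 is an interferon-induced cytoplasmic protein, and Bst2 (tetherin) holds budding virus at the cell surface. Mx1 (mm9, chr16:97668644-97668703) read 478 in control and 1087 in cyclopamine on array 1, and 65.9 and 127 on array 2, with a mean log2 ratio of 1.06 ± 0.17. Mx2 read 561 and 894 on array 1 and 92.2 and 151 on array 2, with a mean of 0.69 ± 0.027, the smallest spread relative to its ratio among the members. Rsad2 read 2804 and 4019 on array 1 and 358 and 608 on array 2. With log2 ratios of 0.52 and 0.76 it was among the 9 genes with the higher ratio in the male pools. Ifi44 was the reverse, reading 668 and 1406 on array 1 and 132 and 180.3 on array 2, with log2 ratios of 1.07 and 0.45.

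Bst2 did not share this direction. It read 9109 in control and 8395 in cyclopamine on array 1, and 1369 and 1172 on array 2, and its mean log2 ratio of −0.17 ± 0.075 was the lowest of the 37. Ifi35, which forms a complex with Nmi, had log2 ratios of −0.27 and 0.14. Its mean of −0.07 was within the SD of 0.29.

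The cytoplasmic RNA sensors Ddx58 (RIG-I), Ifih1 (MDA5) and Dhx58 (LGP2) were all higher on both arrays, with a median log2 ratio of 0.56. Ifih1, which recognises long double-stranded RNA, read 2368 in control and 3838 in cyclopamine on array 1, and 487 and 653 on array 2, with a mean of 0.56 ± 0.19. A dimmer second Ifih1 probe gave 1.22 and 0.56. Dhx58, a regulator of both other sensors, read 154 and 259.9 on array 1 and 24.5 and 32.9 on array 2, with a mean of 0.59 ± 0.23. Ddx58, which recognises the triphosphate end of viral RNA, had log2 ratios of 0.50 and 0.10, and its second probe gave 0.48 and 0.30.

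Oligoadenylate synthetases make the messenger that activates RNase L, and Oasl1 and Oasl2 are members of the same family. The 4 genes were higher in both comparisons, but mainly in the female pools, with medians of 0.73 on array 1 and 0.10 on array 2. Oasl2 had log2 ratios of 0.95 and 0.11, Oas2 of 0.85 and 0.10, and Oas1a of 0.55 and 0.10. Oasl1, an inhibitor of Irf7 translation, differed from these with 0.62 and 0.43. For Oasl2 and Oas2 the SD between the arrays (0.60 and 0.53) exceeded the mean (0.53 and 0.47).

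Ratios were small among the transcription factors that drive the response. Irf7, the amplifier of type I interferon production, read 1088 in control and 1884 in cyclopamine on array 1 but 260.2 and 266 on array 2, which gave log2 ratios of 0.79 and 0.03. Stat2, the ISGF3 subunit with the transactivation domain, had 0.57 and 0.10. Irf9, the DNA-binding subunit of ISGF3, had 0.11 and 0.0037, Irf8, a factor of myeloid cells, 0.18 and 0.06, and Irf1, an early target of interferon signaling, 0.04 and 0.15. All 5 were above 1 in ratio on both arrays, with a median log2 ratio of 0.12. The upstream window of Irf1 (chr11:53769764-53770013, plus strand, RefSeq on GRCm38.p6) is shown because it carries a GAS motif, capitalised, and no ISRE core in this window.
Irf1: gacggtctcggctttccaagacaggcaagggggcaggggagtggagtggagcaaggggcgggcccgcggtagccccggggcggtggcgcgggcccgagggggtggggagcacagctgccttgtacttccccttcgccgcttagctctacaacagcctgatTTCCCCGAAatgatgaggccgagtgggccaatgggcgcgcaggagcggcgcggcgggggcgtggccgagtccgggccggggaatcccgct
The match began at −90.

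The ISG15 pathway attaches a ubiquitin-like protein to targets, and Usp18 removes it and also dampens receptor signaling. Isg15 read 7704 in control and 8105 in cyclopamine on array 1, and 986 and 1083 on array 2. Its log2 ratios were 0.07 and 0.14, and a second probe gave 0.07 and 0.16. Usp18 had 0.21 and 0.34. Both ratios were small in each comparison. The Isg15 window held 3 overlapping ISRE core matches, at −78, −72 and −66.

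The immunity-related GTPases Irgm1 and Igtp (Irgm3) control the loading of other GTPases onto vacuoles. Irgm1 had log2 ratios of 0.50 and 0.30 and its second probe 0.59 and 0.22, and Igtp had 0.38 and 0.13. Both genes were higher in each cyclopamine pool.

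Antigen processing was the role without a common direction. Tap1, which pumps peptides into the endoplasmic reticulum, read 1384 in control and 1879.8 in cyclopamine on array 1, and 226 and 254 on array 2, with a mean log2 ratio of 0.30 ± 0.19. The immunoproteasome subunits Psmb8 and Psmb9 had −0.29 and 0.04, and −0.23 and −0.03. B2m, the light chain of MHC class I, read 52913 and 55069 on array 1 and 11041 and 9996 on array 2, with log2 ratios of 0.06 and −0.14. The mean ratios of Psmb8, Psmb9 and B2m were each smaller than the SD between the arrays. The B2m window (chr2:122147437-122147686, plus strand, RefSeq on GRCm38.p6) is printed as the counterpart to those of the Ifit genes, since it also holds an ISRE core (capitals, at −139).
B2m: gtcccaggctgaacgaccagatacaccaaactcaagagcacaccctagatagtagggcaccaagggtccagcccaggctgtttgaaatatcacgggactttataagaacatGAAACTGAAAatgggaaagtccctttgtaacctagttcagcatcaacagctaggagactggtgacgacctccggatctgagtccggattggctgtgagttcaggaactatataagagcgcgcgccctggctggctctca

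Promoter windows were searched for both motifs across the list. RefSeq windows of 300 bases (250 before and 50 after the start site) were given for 29 of the 37 genes, in 34 windows, and not analysed here for Dhx58, Gbp4, Gbp6, Gbp9, Mx1, Mx2, Oas2 and Usp18. The ISRE core (GAAA, any 2 bases, then GAAA) was searched on both strands, and the palindromic TTCNNNGAA of the GAS once. The ISRE core was found in 17 of the 34 windows (50%), against 3.44% of all 32851 promoters. The GAS motif was found in 10 windows (29.4%), against 8.30% of all promoters. Overlapping matches were counted separately, as in Gbp3 and Isg15. A letter match is not evidence of binding. The 17 genes with an ISRE core match had a median log2 ratio of 0.40 and the 12 without one 0.21, while the 10 genes with a GAS match had 0.19 and the 19 without one 0.41.

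**Figure D4:**
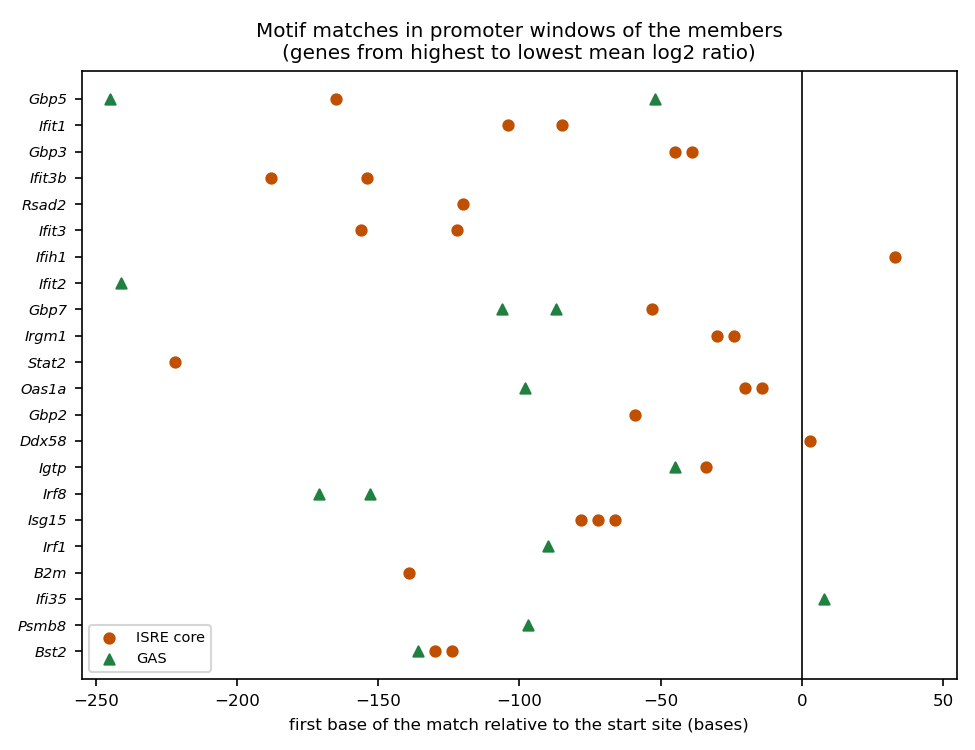
Positions of ISRE core and GAS matches in the promoter windows, in bases from the annotated start site, for the members with at least 1 match, ordered by mean log2 ratio. ISRE core matches occur from Ifit1 and Gbp5, with mean ratios of 1.00 and 1.13, down to Bst2, with −0.17.

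The rest of the pathway was followed through 123 other genes in 8 lists, of which 119 were on the arrays and 111 were bright enough to be tested. limma called 0 of them higher and 0 lower at an adjusted p of 0.05, where it called 0.439% of all genes higher and 0.863% lower. At an unadjusted p under 0.05, 16 were higher and 0 lower, where 4.23% of all genes were higher and 4.81% lower at that level. Under the other fits between 6 and 16 were higher and 0 to 2 lower. Of the 111 genes, 59 were higher and 22 lower on both arrays, where 28.6% of all genes were higher and 29.0% lower. These shares of all genes are the background for each list below. The median log2 ratio of the 111 genes was 0.12. That median was below the one of the 37 members, which had been chosen with their ratios known.

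Interferon ligands were measured in part. Of 10 interferon ligand genes, Ifnb1, Ifna4, Ifnk and Ifng were not well above background in any channel. The 5 that were tested had mean log2 ratios between −0.10 (Ifna2) and 0.03 (Ifnab), and 0 of them were higher on both arrays. Among 11 receptor and transducer genes, 8 were higher on both arrays, with a median of 0.12. Ifnar1, a subunit of the type I receptor, had log2 ratios of 0.79 and 0.05, Stat3 of 0.66 and 0.04, and Jak2, a kinase of the type II receptor, of 0.57 and 0.11.

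Other interferon-inducible GTPases had the list median nearest to that of the members. Of 10 such genes, 8 were higher on both arrays, with a median log2 ratio of 0.45. Gbp2b had log2 ratios of 0.97 and 0.67 and the smallest limma adjusted p of the pathway, 0.0538. Tgtp1, a GTPase of T cells and macrophages, had 0.72 and 0.69 (limma adjusted p 0.136). It was dim, reading 25.9 and 42.6 on array 1 and 4.59 and 7.41 on array 2, well above background in 3 channels. Irgm2 had 0.87 and 0.26 (limma adjusted p 0.341). Among 36 other effectors, 22 were higher and 5 lower on both arrays, with a median of 0.20. Cmpk2, a mitochondrial nucleotide kinase whose gene neighbours Rsad2, had 0.75 and 0.58 (limma adjusted p 0.181), and the DNA-binding proteins Ifi204 and Ifi203 had mean log2 ratios of 0.65 and 0.60.

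Sensing and feedback genes were mixed. Of 16 genes for sensing nucleic acid and inducing interferon, 9 were higher and 4 lower on both arrays, where 28.6% and 29.0% of all genes were. The endosomal receptor Tlr8 had a mean log2 ratio of 0.65 ± 0.69, from 1.14 on array 1 and 0.17 on array 2. It was dim, reading 38.9 and 85.6 on array 1 and 26.9 and 30.2 on array 2. The nucleic acid sensor Zbp1 had a mean of 0.60, whereas the cytoplasmic DNA sensor Cgas had −0.42. Among 10 negative regulators, 4 were higher and 3 lower, near those shares. Socs1, the feedback inhibitor of JAK kinases, had a mean of −0.43 (limma adjusted p 0.567). Adar, which edits double-stranded RNA, had a mean of 0.36 from opposite arrays (0.73 and −0.01). Ptpn2, a phosphatase of JAK and STAT proteins, had a mean of −0.21.

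Of 16 antigen presentation genes tested, 5 were higher and 6 lower on both arrays, near the shares of all genes (28.6% and 29.0%). Their median was 0.04. Erap1, which trims peptides, had a mean of 0.34 and the class II genes Cd74 and H2-Eb1 had −0.34 and −0.31. Of 7 chemokines, 3 were higher and 1 lower on both arrays. Cxcl10 read 5776 in control and 7388 in cyclopamine on array 1, and 764 and 1518 on array 2, with a mean of 0.67 (limma adjusted p 0.190). Cxcl9, a target of type II interferon, split the arrays, with 909.7 and 1946 on array 1 but 176 and 59.4 on array 2. Ccl12 had a mean of −0.25.

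**Figure D5:**
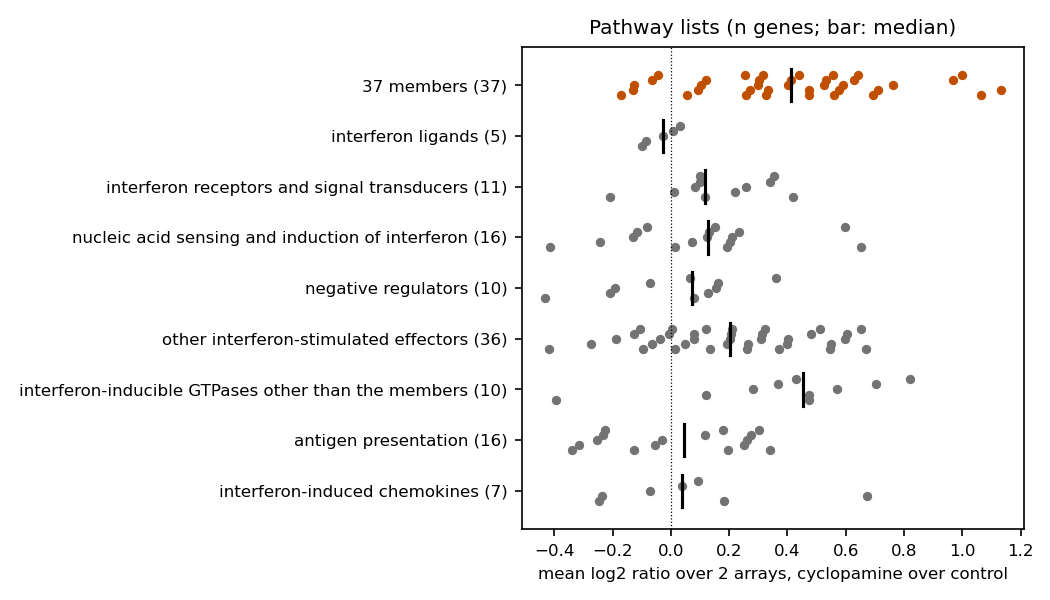
Mean log2 ratio of cyclopamine over control over the 2 arrays for the 37 interferon-induced genes and the tested genes of 8 pathway lists; each point is 1 gene, and the bar is the median of its list. The bars lie at 0.41 for the members, 0.45 for the other GTPases and between −0.03 and 0.20 for the other lists.

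Leukocytes express many of the interferon-induced genes, and their markers were read in the same way. Of 18 leukocyte markers tested, 2 were higher and 6 lower on both arrays, where 28.6% of all genes were higher and 29.0% lower. The other 10 went in opposite directions on the 2 arrays. The median log2 ratio was −0.08 on array 1, −0.19 on array 2 and −0.11 for the mean of both. The summed intensity of the 23 markers was 70451 in control and 69531 in cyclopamine on array 1 (ratio 0.987), and 17648 and 17759 on array 2 (ratio 1.01). Without Siglech, the brightest probe of the list, the ratios of the sums were 0.961 and 0.914. Of the T, B and natural killer cell markers, Cd3g, Cd8a, Ms4a1 and Ncr1 were not well above background in any channel, whereas Cd3e and Cd4 were in all 4 and Cd79a was in 3. The mast cell protease Mcpt4 was called lower by limma (mean −0.93, adjusted p 0.0245). The 8 endothelial markers were opposite on the arrays in their median ratio, with 0.44 on array 1 and −0.13 on array 2, and had summed intensity ratios of 1.22 and 0.884. Smooth muscle and mesenchymal markers did likewise in their medians, with 0.31 and −0.40. Singly, 1 of these 11 markers was higher on both arrays, 5 were lower on both and 5 were opposite. Among 10 urothelial markers, 7 were higher on both arrays, with a median of 0.18. Of 4 kidney epithelial markers tested, 3 were higher on both arrays, with a median of 0.54. The summed intensities of all 8 were low, with 330 and 493 on array 1 (ratio 1.496) and 118 and 284 on array 2 (ratio 2.40). Among them Cdh16 was called higher (limma adjusted p 0.000107), with log2 ratios of 0.50 and 2.88 and a mean of 1.69 ± 1.68. Cdh16 was dim, reading 41.0 and 58.1 on array 1 and 24.1 and 178 on array 2. The part of these cell types in the ratios of the interferon-induced genes was not tested.

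Gene length moved with the ratios of array 1. Over 16047 genes the log2 ratio correlated with genomic length with a Spearman rho of 0.44 on array 1 and 0.04 on array 2, as a description across genes that share the same libraries. The median length was 13.7 kb for the interferon-induced genes and 21.3 kb for all genes. With the length trend removed, their median log2 ratios were 0.59 on array 1 and 0.16 on array 2, and 32 of the 37 were higher on both arrays.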

How the data were processed

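For each spot, the deposited scanner output gives an intensity per channel, which the authors extracted with Agilent Feature Extraction (12.2.0.7 in the file headers, 10.7.3.1 in the submitters' processing notes). Per the file headers, the processed intensity is background-subtracted and dye-balanced by linear and LOWESS steps, with a surrogate value for dim spots, and the log10 ratio is red over green, not turned for the dye swap. Flags for outlier, saturated and well-above-background spots came with the deposited files. A deposited table of the series holds signed fold change values (a score; median 1.00 on each array), which turned out to run cyclopamine over control (r = 0.83 and 0.72 with the log2 ratios of the scanner files over all probes); how they were centred is not given in the sources used here, and they served as an alternative.

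Control and outlier spots were left out and the remaining spots of each probe averaged on the log2 scale, giving 39429 probes. Ratios were turned to cyclopamine over control, and groups and dyes were taken from the labels. A probe entered the fit if a share of 0.5 or more of its spots passed the background flag in 1 group on both arrays, which left 25991 probes and 19354 genes by brightest probe. Non-member genes were tested with limma 3.58.1 in R 4.3.3 (intercept only, 1 residual degree of freedom, two-sided, Benjamini-Hochberg over all probes). Per the methods of the study, each pool held several ureters of one sex and the pools were independent. The p-values rest on 2 arrays and on variances that limma moderates with those of all probes. A gene with a wide spread between the arrays can therefore still be called, as Cdh16 was. Counts, sequences and plots were made in Python 3.11.15 (pandas 2.3.3, matplotlib 3.10.9), and the fit was tested on simulated data. Positions of probes were copied from the array annotation (mm9), in which exons and UTRs are not marked. Promoters came from RefSeq (GRCm38.p6), and no position was carried from one build to the other. Values of 1 pathway gene and 1 probe sequence are not reported here.

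The members and the lists were chosen with earlier results of these data known. Values in every channel were given for the 12 members with the largest absolute mean log2 ratio and for every Gbp gene among the members, and ratios for the others. Intensities of Irf7, Isg15, Bst2, Tap1, B2m, Cxcl9, Cxcl10, Cdh16, Tlr8, Tgtp1 and Mcpt4 were added after their values were seen. The same holds for the leukocyte sum without Siglech and the sums of the kidney markers. Named were, of each list, the genes called by limma or else at most the 3 with the largest absolute mean. Gbp8, Gbp10, Gbp11 and Cpa3 were named in addition, after their values were seen. Alternatives were other background corrections, the series table, other probe, name and dim-probe rules, a variance trend, unpaired channels, removal of the gene length trend, other limits and each array alone.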

Additional observations from a re-analysis of the deposited data

Results flagged for a closer look

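Ifi35, B2m and Cxcl9 were flagged because the female and the male pools went in opposite directions. This was not particular to them. Psmb8 did so too (−0.29 and 0.04), and so did 30 of the 111 tested pathway genes, Cxcl9 among them. Over all genes, 28.6% were higher and 29.0% lower on both arrays, and the rest were neither. The log2 ratio of the female pools minus that of the male pools was −0.41 for Ifi35, 0.20 for B2m and 2.66 for Cxcl9. With 1 array per sex these differences were not tested, and sex and dye orientation cannot be told apart.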

How the results depend on the processing

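The mean ratio was above 1 for 32 members and below 1 for 2 (Bst2 and Psmb9) under every alternative run, and on either side for B2m, Ifi35 and Psmb8. Values moved by more than the SD between arrays in 6 members with the length trend removed, in 3 with normexp at offset 50, in 1 with normexp at offset 10 and, for Gbp5 (0.59), with the mean over all probes. Each array alone gave 33 to 34 members higher and 3 to 4 lower. The ratios of each array alone put 5 to 13 members past the study's limits on the higher side and 0 on the lower side. In these counts the control intensity limit was still required on both arrays. The medians from each array alone were 0.17 to 0.57 for the members, 0.05 to 0.18 for the pathway genes and −1.49 to −0.68 for the SHH targets. In the series table, 27 members were higher on both arrays, against 32. Members lower on both arrays numbered 1 with the length trend removed and 1 in the series table, against 2, and 0 members were 2-fold higher on both arrays. Pathway genes called higher numbered 1 with a variance trend (Gbp2b) and 4 with the length trend removed (Cmpk2, Cxcl10, Gbp2b and Tgtp1), against 0. SHH targets called lower numbered 3 with normexp at offset 50 and 0 in the series table, against 5. Of all probes, limma called 118 higher and 199 lower; these were 206 and 321 with the length trend removed, 52 and 123 with normexp at offset 10, 12 and 41 at offset 50, and 0 and 0 in the series table, and 216 were higher with no filter on dim probes. When the 4 channels were fitted unpaired, that is without the replicate block, 0 SHH targets and 0 probes in either direction were called. The causes were not tested. With 2 arrays and dim probes for several ligands, small differences were not detectable here.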
